A study of Homo sapiens with 6 samples.

Results

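The genes described here assemble the sugar precursor of N-glycosylation and transfer it to proteins. They are 34 genes, chosen by symbol from knowledge of the pathway and matched by gene identifier, of the 57820 gene rows in each table. All 34 passed the filter on low counts. The study used U266, an established human multiple myeloma (plasmacytoma) cell line. It compared 3 control samples with 3 samples transduced with a lentiviral vector that drives MYC from the constitutive EF1A promoter. Neither an empty vector in the controls nor the pooled or clonal make-up of the MYC line is stated in the labels, so transduction and MYC cannot be told apart. RNA was poly-A enriched and sequenced, and the samples of a group are not stated to be separate cultures, so the p-values measure the spread between these samples, which may be technical.

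N-linked glycans are built on dolichol, a long isoprenoid lipid of the endoplasmic reticulum membrane. The first sugars are added on the cytosolic face, the intermediate is flipped, and further mannoses and glucoses are added in the lumen from dolichol-phosphate mannose and dolichol-phosphate glucose. The oligosaccharyltransferase then moves the finished oligosaccharide to asparagines of proteins entering the lumen. Plasma cells, from which myeloma arises, secrete large amounts of glycosylated immunoglobulin. MYC is a transcription factor that binds DNA with its partner MAX, and the sequence CACGTG, the canonical E-box, is its best known site.

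That sequence was looked for in promoters of the members, taken from RefSeq (GRCh38.p14) as the 250 bases before each listed start, where 30 of the 34 members had an entry. CACGTG reads the same on both strands, so 1 search covers both, and no other motif was searched. A gene was counted if any of its listed starts had a match, for members and all genes alike. CACGTG occurred in 7 of the 30 (23.3%), namely ALG1, ALG3, DDOST, DHDDS, DOLK, NUS1 and SRD5A3, and in 1287 of 11680 tested genes with an entry (11%). Of these 7 members, 4 belong to the 5 genes of dolichol supply. These 4 promoters are shown first, because they hold most of the matches, followed by those of ALG8 and DPM3, which were called in opposite directions in the comparison below and have no match in this window. Each is written 5′ to 3′ on the gene's strand, with CACGTG in capitals.
DHDDS (chr1:26432071-26432320, plus strand): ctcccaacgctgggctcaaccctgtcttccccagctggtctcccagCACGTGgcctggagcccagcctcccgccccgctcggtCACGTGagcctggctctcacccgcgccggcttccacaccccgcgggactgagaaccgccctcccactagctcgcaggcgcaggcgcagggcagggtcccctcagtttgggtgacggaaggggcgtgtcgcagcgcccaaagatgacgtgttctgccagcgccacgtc
NUS1 (chr6:117675219-117675468, plus strand): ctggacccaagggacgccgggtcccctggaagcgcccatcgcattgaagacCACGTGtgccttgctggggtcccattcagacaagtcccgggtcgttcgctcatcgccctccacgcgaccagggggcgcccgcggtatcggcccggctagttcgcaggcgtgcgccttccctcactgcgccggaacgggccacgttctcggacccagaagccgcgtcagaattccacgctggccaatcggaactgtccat
SRD5A3 (chr4:55345992-55346241, plus strand): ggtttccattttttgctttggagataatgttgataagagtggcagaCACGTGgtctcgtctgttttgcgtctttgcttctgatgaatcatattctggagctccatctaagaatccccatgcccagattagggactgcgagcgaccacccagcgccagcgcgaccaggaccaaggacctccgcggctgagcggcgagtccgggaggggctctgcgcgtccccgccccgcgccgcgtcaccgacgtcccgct
DOLK (chr9:128947604-128947853, minus strand): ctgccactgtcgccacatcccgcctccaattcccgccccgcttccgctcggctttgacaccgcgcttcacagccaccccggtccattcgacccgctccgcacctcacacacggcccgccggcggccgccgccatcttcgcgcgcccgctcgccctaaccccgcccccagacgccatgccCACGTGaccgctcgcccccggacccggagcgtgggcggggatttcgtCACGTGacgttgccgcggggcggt
ALG8 (chr11:78139627-78139876, minus strand): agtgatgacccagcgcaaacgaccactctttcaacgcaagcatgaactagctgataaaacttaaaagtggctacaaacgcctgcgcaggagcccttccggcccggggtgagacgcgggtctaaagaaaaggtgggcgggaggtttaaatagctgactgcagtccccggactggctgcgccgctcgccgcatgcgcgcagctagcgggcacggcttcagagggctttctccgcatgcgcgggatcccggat
DPM3 (chr1:155140532-155140781, minus strand): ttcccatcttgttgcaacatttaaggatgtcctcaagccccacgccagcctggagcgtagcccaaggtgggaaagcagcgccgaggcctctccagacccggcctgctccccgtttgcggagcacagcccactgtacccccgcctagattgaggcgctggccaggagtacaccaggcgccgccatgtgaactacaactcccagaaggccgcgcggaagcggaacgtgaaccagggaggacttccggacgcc
A match is a description of the letters, and binding was not measured. By the test described below, NUS1 was called higher, DOLK lower and DHDDS and SRD5A3 in neither direction. With the offset for GC content also described below, each of these calls changed: NUS1 and DOLK were not called, and DHDDS and SRD5A3 were lower. Of the other members with a match, ALG3 was lower without that offset only, and ALG1 and DDOST were called in neither fit. ALG1 and ALG3 also have listed starts without a match.

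Library depth ran from 27139978 to 158667309 summed expected counts, and the shallowest and the deepest library were both MYC samples. The first principal component of log2 CPM (79.1% of the variance) separated the groups, and the second (9.40%) placed MYC libraries 1 and 3 at opposite ends. MYC itself stood between 3.91 and 4.51 CPM (counts scaled to a common library total with TMM factors) in the controls and between 92.1 and 110.3 CPM in the MYC libraries. By edgeR it rose by 4.60 ± 0.10 on the log2 scale (SE, adjusted p = 9.71e-08), vector and endogenous transcripts counted together. The summed TPM (RSEM's expression value, scaled for length and depth) of 6 plasma cell markers was 1934 to 2150 in the controls and 1320 to 1366 in the MYC libraries. Markers of other cell types summed to much less: 8.17 to 10.5 TPM in the controls and 10.95 to 12.05 TPM in MYC for 4 T and NK cell genes, 1.61 to 2.30 and 1.01 to 1.59 for 4 myeloid genes, 3.32 to 4.11 and 2.88 to 3.48 for 4 stromal genes, and 4 to 4.78 and 7.59 to 8.69 for 4 epithelial genes. Members of a list did not all move one way: CD3E was called higher (0.82, adjusted p = 0.000739, edgeR) while CD2 (-0.63) and CD8A (-0.50) were called lower, and MZB1 (0.31, adjusted p = 0.0555) differed in sign from the other 5 plasma cell markers, which were called lower. With the offset for GC content described below, CD8A was not called (-0.21, adjusted p = 0.310, edgeR). MZB1 was then called higher (0.997, adjusted p = 1.15e-06), and CD3E, CD2 and the other 5 plasma cell markers kept their calls. No marker was at 0 in every library, and the part of these shifts in the results below was not tested. In bulk samples, fewer cells of a type and less RNA per cell cannot be told apart.

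**Figure D1:**
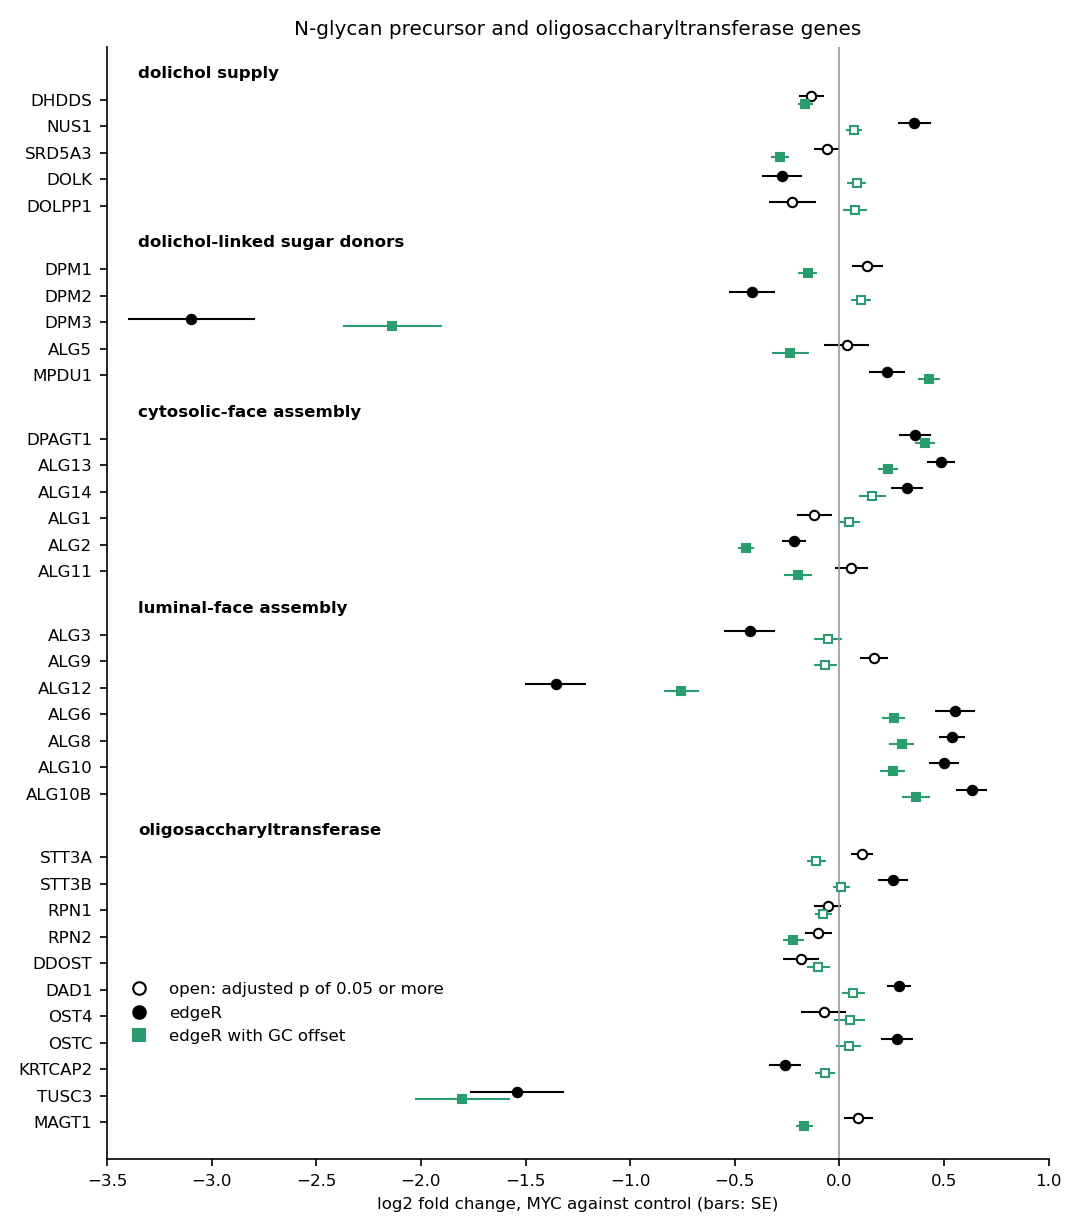
Log2 fold change of MYC against control for the 34 genes, grouped by role; circles are edgeR estimates, squares those with a GC offset, bars are SE, and open symbols have an adjusted p of 0.05 or more. Most genes lie within 1 log2 unit of 0, while DPM3, ALG12 and TUSC3 lie far to the left by edgeR.

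By edgeR's quasi-likelihood test on rounded expected counts, with Benjamini-Hochberg adjustment over 17679 genes, 12 of the 34 members were higher in the MYC samples, 8 were lower and 14 did not pass an adjusted p of 0.05. Over all genes tested, 60.8% were called, 28.8% higher and 32.1% lower, so the members' 20 calls lie near that background. The median log2 fold change was 0.05 over the members and -0.02 over all genes. In CPM, 13 members had all MYC libraries above all controls, 10 had all below and 11 overlapped. Over all genes 67.1% did not overlap, 32.1% above and 35.1% below.

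Fold changes in these libraries moved with GC content. Genes whose transcripts have under 42% GC had a median of 0.25 on the log2 scale, and those with at least 58% a median of -0.93. Across the 34 members, Spearman's rho between GC content and log2 fold change was -0.66, and across 17219 genes it was -0.56. These are correlations across genes of the same 6 libraries, and genes are not independent replicates. The edgeR results of the members are therefore also given with a GC offset, which removes each library's trend of CPM on GC content. It left a rho of -0.03 over the members, and with it 7 members were higher, 11 lower and 16 not called. Of all genes with a GC value, 59.3% were then called, 27.8% higher and 31.5% lower. Whether the trend is technical or biological was not tested.

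**Figure D2:**
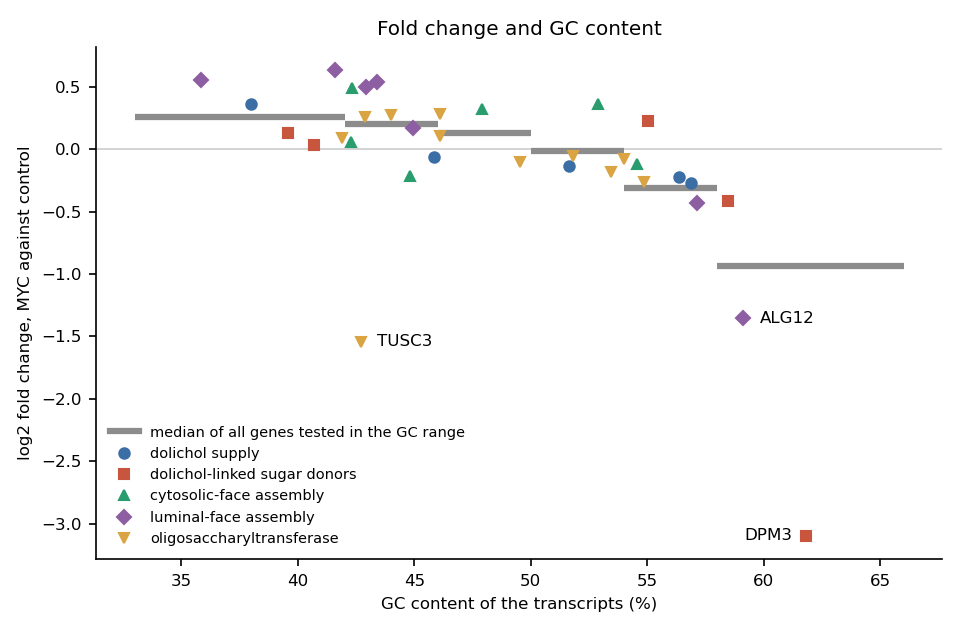
Log2 fold change of MYC against control (vertical axis) against the GC content of each gene's transcripts in percent (horizontal axis), with the members as points and the median of all tested genes in each GC range as bars (the lowest and highest ranges extend beyond the bars drawn). Members of low GC content lie mostly above 0, and the range of 58% or more has a median of -0.93.

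Calls that did not depend on the offset covered 11 members. MPDU1, DPAGT1, ALG13, ALG6, ALG8, ALG10 and ALG10B were higher both ways, and DPM3, ALG2, ALG12 and TUSC3 were lower both ways. Over all genes with a GC value, 19.9% were higher both ways and 20.9% lower both ways. No member was called in opposite directions. Over the 17 settings fitted, DPAGT1, ALG6 and ALG8 were called higher in each, and DPM3, ALG2, ALG12 and TUSC3 lower in each in which they were tested. TUSC3 was too low to be tested at a mean CPM of at least 5. ALG1, STT3A, RPN1 and OST4 were called in neither direction in any setting. The shares of all genes called alike in every setting, or in none, were not counted. These members therefore have no background beside them.

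**Figure D3:**
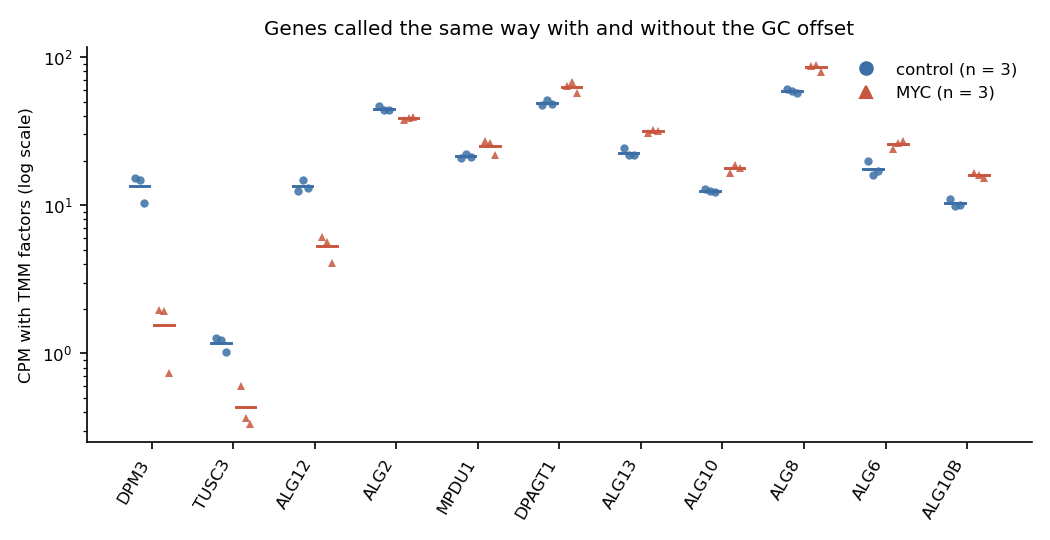
CPM per library (log axis) of the 11 members called in the same direction with and without the GC offset; circles are control, triangles MYC libraries (n = 3 each), and lines are means. The groups of DPM3, ALG12 and TUSC3 are the farthest apart, and those of MPDU1 overlap.

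Among the 5 genes of dolichol supply, none was called both with and without the offset. NUS1 was higher and DOLK lower without it, and DHDDS and SRD5A3 were lower with it. NUS1, the subunit that with catalytic DHDDS forms the cis-prenyltransferase building the lipid chain, read 121, 100.8 and 105 CPM in control and 134, 138 and 147 CPM in MYC libraries. Its groups did not overlap, and edgeR called it higher at 0.36 ± 0.08 (SE, adjusted p = 0.00383), against 0.07 with the GC offset (adjusted p = 0.156). The annotation names 4 pseudogenes of NUS1, whose reads may be shared with it. DHDDS read 63.9, 69.4 and 69.1 CPM in control and 63.1, 61.8 and 59.7 CPM in MYC libraries. It was not called at -0.13 (adjusted p = 0.0759, edgeR) and was called lower with the offset at -0.16 (adjusted p = 0.00366). The 2 subunits of this enzyme were thus not called in the same direction in either fit.

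SRD5A3, a reductase of the polyprenol to dolichol step, stayed between 36.3 and 40.4 CPM in all 6 libraries. Its MYC libraries (36.3 to 37.4 CPM) lay just below its controls (37.5 to 40.4 CPM), while the groups overlapped in TPM. Its log2 fold change of -0.06 (adjusted p = 0.390, edgeR) became -0.28 with the offset (adjusted p = 0.000373). DOLK, the kinase that makes dolichol phosphate, read 24.5, 27.8 and 26.0 CPM in control and 23.8, 22.2 and 18.9 CPM in MYC libraries. The groups sat side by side without overlap. DOLK was lower by edgeR at -0.27 ± 0.09 (adjusted p = 0.0331), which turned to 0.08 with the offset (adjusted p = 0.142). DOLK's call also ended without control library 2 or 3 or MYC library 2 or 3 (adjusted p = 0.0865, 0.0806, 0.0674 and 0.0590, edgeR). DOLPP1, the phosphatase that recycles dolichol after transfer, was not called at -0.23 (adjusted p = 0.113, edgeR) or with the offset at 0.07 (adjusted p = 0.283).

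Of the 5 genes that make or use the dolichol-linked monosaccharides, DPM3 showed the lowest log2 fold change of all 34 members. DPM3 (ENSG00000179085.7) is the small membrane subunit that holds DPM1, the catalytic subunit of dolichol-phosphate mannose synthase, at the membrane. It read 15.2, 14.7 and 10.3 CPM in control and 1.97, 1.93 and 0.736 CPM in MYC libraries, from 843, 1136 and 1358 counts and 52, 300 and 40 counts. Every MYC library lay far below every control, and MYC library 3 was the lowest. This is an 8.55-fold lower level, -3.10 ± 0.30 on the log2 scale (SE, adjusted p = 5.58e-05, edgeR). With the GC offset the difference was 4.40-fold, at -2.14 ± 0.24 (adjusted p = 5.03e-05). DPM3 lies in the GC range of 58% or more, in which 78.5% of genes were called lower. Without MYC library 3 its log2 fold change was -2.77 (adjusted p = 1.14e-06). No other gene's exon overlaps its exons in the GENCODE 29 annotation.

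Its partner subunits did not follow it in size. DPM1 ran from 40.5 to 46.4 CPM in control and from 44.3 to 49.4 CPM in MYC libraries, with overlap. It was not called at 0.13 (adjusted p = 0.154, edgeR), and with the GC offset it was called lower at -0.15 (adjusted p = 0.0178). DPM2, the regulatory subunit, read 139, 172 and 162 CPM in control and 129.8, 124 and 100.9 CPM in MYC libraries. The groups did not overlap, and it was called lower at -0.42 ± 0.11 (adjusted p = 0.00993, edgeR), but stood at 0.10 with the offset (adjusted p = 0.101). An opposite-strand gene covers 19.2% of DPM2's exon bases, and reads of the 2 strands may not have been told apart.

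Within a library, the TPM ratio of DPM3 to DPM1 compares them per length. It was 1.35, 1.401 and 1.04 in control and 0.189, 0.172 and 0.0563 in MYC libraries. The subunits were thus at like levels in the controls, and DPM3 was the lower one in every MYC library. The mean log2 ratio differed by -3.36, a 10.2-fold lower ratio (exact two-sided permutation test, p = 0.1, the smallest that 3 against 3 allows). Without MYC library 3 it differed by -2.80, and with each library's GC trend taken out by -2.13, a 4.37-fold lower ratio (exact permutation p = 0.1). The ratio of DPM2 to DPM1 was 2.42, 3.46 and 3.20 in control and 2.22, 2.19 and 1.61 in MYC libraries, a 1.51-fold lower ratio (exact permutation p = 0.1). With the GC trend taken out its direction turned, to a 1.16-fold higher ratio in the MYC samples (log2 difference 0.21, exact permutation p = 0.1). These are 2 of 4 ratios computed, and none can pass 0.05 in this design.

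ALG5, the dolichol-phosphate glucose synthase, overlapped between groups at 15.6 to 19.9 CPM in control and 16.3 to 17.9 CPM in MYC libraries. It was called lower with the GC offset, at -0.23 (adjusted p = 0.0443, edgeR), and not without it, at 0.03 (adjusted p = 0.799). MPDU1, needed in the lumen for the use of both dolichol-linked monosaccharides, read 20.7, 22.0 and 21.2 CPM in control and 26.9, 26.2 and 21.9 CPM in MYC libraries. MYC library 3 fell within the range of the controls. Its log2 fold change was 0.23 ± 0.09 (adjusted p = 0.0486, edgeR) and 0.43 ± 0.05 with the offset (adjusted p = 7.71e-05). Without the offset the call was lost in 8 alternatives, 5 of which each left out 1 library, namely any control or MYC library 1 or 2 (log2 fold changes from 0.18 to 0.24).

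The deposited gene length of MPDU1, an average over its transcripts weighted by their share, was 1284, 1332 and 1246 bases in control and 1183, 1106 and 974 bases in MYC libraries. Shorter transcripts thus held a larger estimated share in all 3 MYC libraries. In TPM, MPDU1 rose from 25.8, 24.4 and 27.0 to 34.05, 36.7 and 38.7 without overlap, and the log2 difference on the log2(TPM + 1) scale was 0.49 (adjusted p = 0.00110, limma).

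On the cytosolic face, 3 of 6 genes were called higher and 1 lower, and with the GC offset 2 were higher and 2 lower. DPAGT1, which starts the precursor by adding the first N-acetylglucosamine phosphate and is the target of tunicamycin, read 47.2, 51.0 and 48.4 CPM in control and 63.8, 67.8 and 56.8 CPM in MYC libraries. All MYC libraries lay above all controls. Its log2 fold change was 0.36 ± 0.08 (adjusted p = 0.00321, edgeR), a 1.29-fold rise, and 0.41 with the offset (adjusted p = 7.34e-05). Its GC content falls in a range (50 to 54%) whose median log2 fold change was -0.02. The gene C2CD2L overlaps 21.3% of its exon bases on the opposite strand.

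ALG13 and ALG14 are the catalytic and membrane subunits of the enzyme that adds the second N-acetylglucosamine. ALG13 read 24.1, 21.8 and 21.7 CPM in control and 30.7, 32.3 and 31.5 CPM in MYC libraries, with no overlap. It was higher by 0.49 ± 0.07 (adjusted p = 0.000345, edgeR) and by 0.23 with the offset (adjusted p = 0.00217), but on log2(TPM + 1) it was not called (0.26, adjusted p = 0.0607, limma). ALG14 read 10.4, 9.47 and 9.30 CPM in control and 11.9, 12.2 and 12.3 CPM in MYC libraries, and edgeR gave 0.32 ± 0.08 on the log2 scale (adjusted p = 0.00595). With the GC offset it was at 0.16 and not called (adjusted p = 0.0598). In TPM its groups overlapped, at 7.85, 7.34 and 6.42 in control and 3.65, 7.62 and 7.88 in MYC libraries, and the difference changed sign, to -0.21 on log2(TPM + 1) (adjusted p = 0.506, limma). MYC library 1 set that value: the deposited length of ALG14 was 4170 bases there and between 1818 and 2300 bases in the other 5 libraries.

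ALG2, which adds the next mannoses after the first, was lower. It read 46.5, 44.0 and 43.8 CPM in control and 37.3, 38.7 and 39.5 CPM in MYC libraries, with no overlap and a narrow spread. The difference was 1.16-fold, at -0.22 ± 0.06 (adjusted p = 0.0109, edgeR), and -0.45 ± 0.04 with the offset (1.36-fold, adjusted p = 7.86e-06). In its GC range, 42 to 46%, the median log2 fold change was 0.20 and 10.1% of genes were called lower. ALG1, the first mannosyltransferase, was not called in either fit (-0.12, adjusted p = 0.248, and 0.05, adjusted p = 0.420, edgeR), and other genes overlap 42.3% of its exon bases. ALG11, which adds the last cytosolic mannoses, stayed between 6.74 and 7.61 CPM in all libraries. It was called lower with the offset only (-0.20, adjusted p = 0.0275, edgeR), and UTP14C overlaps 39.7% of its exon bases.

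On the luminal face, all 4 glucosyltransferase genes were called higher by edgeR on counts, although the rise of ALG10 and ALG10B was not called per length. ALG6, ALG8 and ALG10 with its close copy ALG10B add the first, the second and the last glucose of the precursor, and these 4 genes were the 4 called higher among the 7 luminal genes, with and without the GC offset. Among the 3 mannosyltransferases, ALG12 and ALG3 were called lower and ALG9 was not called. The difference between these kinds of enzyme was not tested. The median log2 fold change of the 7 was 0.50, and 0.25 with the offset. All of ALG6, ALG8, ALG10 and ALG10B had every MYC library above every control in CPM. ALG6 and ALG10B lie in the range under 42% GC, in which 48.4% of all genes were called higher without the offset. ALG8 and ALG10 lie in the range of 42 to 46%, in which 45.8% were. ALG12 lies in the range of 58% or more and ALG3 in that of 54 to 58%, in which 78.5% and 48.9% were called lower. ALG9 lies in the range of 42 to 46%, together with ALG8 and ALG10. ALG12 and ALG3 thus differ from the glucosyltransferases in GC range as well, and ALG9 does not differ from all of them.

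ALG8 read 60.5, 58.5 and 56.8 CPM in control and 87.4, 88.2 and 79.7 CPM in MYC libraries, a gap wider than the range within either group. By edgeR the rise was 1.45-fold, at 0.54 ± 0.06 (adjusted p = 0.000118). It was 1.23-fold with the offset, at 0.30 ± 0.06 (adjusted p = 0.00223). In TPM it stood at 64.6, 57.7 and 57.99 in control and 85.4, 86.8 and 87.0 in MYC libraries. ALG6 read 19.9, 15.9 and 17.1 CPM in control and 23.8, 26.4 and 27.1 CPM in MYC libraries. By edgeR it rose 1.47-fold, at 0.55 ± 0.10 (adjusted p = 0.00125), and the offset left 1.20-fold, at 0.26 (adjusted p = 0.00305). No other gene overlaps the exons of ALG6 or ALG8.

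ALG10 ran from 12.3 to 12.8 CPM in control and from 16.5 to 18.6 CPM in MYC libraries, at 0.50 ± 0.07 (adjusted p = 0.000447, edgeR) and at 0.25 with the offset (adjusted p = 0.00476). ALG10B ran from 9.80 to 11.0 CPM in control and from 15.3 to 16.4 CPM in MYC libraries, at 0.63 ± 0.08 (adjusted p = 0.000153) and at 0.37 with the offset (adjusted p = 0.00128). The split of reads between these near-identical copies is an estimate, so each value is uncertain. Per length, neither call held: on log2(TPM + 1) ALG10 was at 0.32 (adjusted p = 0.0589, limma) and ALG10B at 0.18 (adjusted p = 0.303), and with an effective length offset they were at 0.37 and 0.24 (adjusted p = 0.0507 and 0.239, edgeR). An opposite-strand gene also overlaps 42.2% of ALG10's exon bases.

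ALG12, which adds a branch mannose in the lumen, read 12.4, 14.7 and 13.1 CPM in control and 6.09, 5.67 and 4.05 CPM in MYC libraries. Every MYC library lay far below every control, and MYC library 3 was the lowest. By edgeR it was 2.56-fold lower, at -1.36 ± 0.14 (adjusted p = 8.58e-05). The GC offset left it 1.69-fold lower, at -0.76 (adjusted p = 4.84e-05). Like DPM3 it lies in the GC range whose median was -0.93, and AL671710.1 and CRELD2 on the opposite strand overlap 42.1% of its exon bases. ALG3, which adds the first luminal mannose, read 139.6, 159 and 144 CPM in control and 122, 119 and 87.2 CPM in MYC libraries, with MYC library 3 the lowest. It was lower at -0.43 ± 0.12 (adjusted p = 0.0146, edgeR) and stood at -0.05 with the offset (adjusted p = 0.511). ALG9, the mannosyltransferase that acts before and after ALG12, had its MYC libraries (18.4 to 19.6 CPM) above its controls (16.1 to 17.3 CPM) but did not pass the test (0.17, adjusted p = 0.0585, edgeR; -0.07 with the offset, adjusted p = 0.323). ALG9 was called higher with RLE factors (adjusted p = 0.0344, edgeR), by DESeq2 (adjusted p = 0.0391) and with the effective length offset (0.26, adjusted p = 0.0193, edgeR).

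The oligosaccharyltransferase comes in 2 forms. STT3A is the catalytic subunit of the form that glycosylates chains while they enter the lumen, together with OSTC and KRTCAP2, and STT3B that of the form that also acts later, together with MAGT1 or TUSC3. RPN1, RPN2, DDOST, DAD1 and OST4 belong to both. Of these 11 subunits, 3 were called higher, 2 lower and 6 not, and with the GC offset none was higher, 3 were lower and 8 were not called. TUSC3 was the one subunit lower in both fits.

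In control TPM, a level per length, the subunits ranged from OST4 at 477 ± 34.6, DDOST at 458 ± 10.3 and RPN2 at 450.2 ± 13.8 (SD, n = 3) down to MAGT1 at 41.9 ± 1.19 and TUSC3 at 1.75 ± 0.262. These first 3 overlapped between libraries, so their order is not set beyond their spread. KRTCAP2 (326), DAD1 (288) and RPN1 (241) followed without overlap. OSTC (101.5) and STT3A (95.3) overlapped with each other, and OSTC also reached above STT3B (77.1) in every library. The 2 catalytic subunits were below each of the 5 shared ones in every control library.

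**Figure D4:**
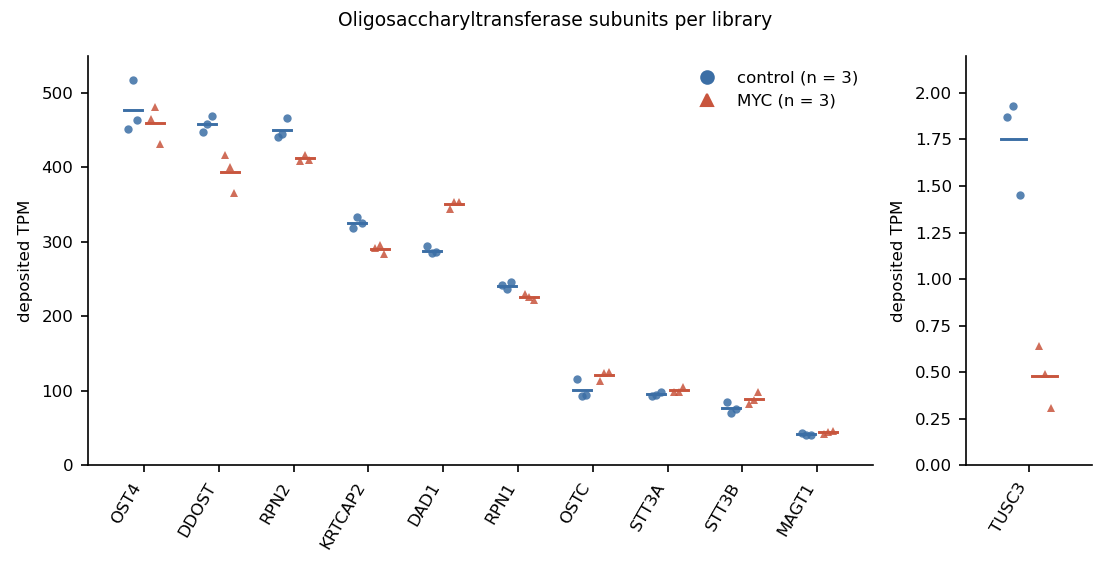
Deposited TPM per library of the oligosaccharyltransferase subunits, in order of their control mean, on linear axes with a separate axis for TUSC3; circles are control, triangles MYC libraries (n = 3 each), and lines are means. TUSC3 drops from 1.75 to 0.480 TPM, DAD1 and STT3A lie above their controls, RPN1, RPN2, DDOST and KRTCAP2 lie below theirs, and the other 4 overlap.

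TUSC3, a thioredoxin-like subunit that can take the place of MAGT1, read 1.26, 1.23 and 1.03 CPM in control and 0.605, 0.366 and 0.331 CPM in MYC libraries. These values rest on 70, 95 and 136 counts in control and 16, 57 and 18 counts in MYC libraries, so it is the least precisely measured of the subunits. The groups did not overlap. By edgeR it was 2.91-fold lower, at -1.54 ± 0.22 (adjusted p = 0.000435). The GC offset made it 3.49-fold lower, at -1.80 ± 0.22 (adjusted p = 0.000108). On the log2(TPM + 1) scale, which understates changes of low genes, the difference was -0.90 (adjusted p = 0.000394, limma). In its GC range, 42 to 46%, 10.1% of genes were called lower.

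MAGT1 ran from 107 to 124 CPM in control and from 115 to 124 CPM in MYC libraries. It was not called at 0.09 (adjusted p = 0.289, edgeR) and was called lower with the offset at -0.17 (adjusted p = 0.00621). The TPM ratio of TUSC3 to MAGT1 was 0.0433, 0.0467 and 0.0353 in control and 0.0150, 0.0111 and 0.00663 in MYC libraries. TUSC3 was thus the minor of these alternatives in all 6 libraries, and its ratio was 4.02-fold lower in the MYC samples (log2 difference -2.01, exact two-sided permutation test, p = 0.1, the smallest possible), and 3.99-fold lower with the GC trend taken out (p = 0.1).

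The balance of the catalytic subunits was not shown to differ. STT3A read 125, 132 and 131 CPM in control and 140.4, 140.2 and 137 CPM in MYC libraries, without overlap, but its log2 fold change of 0.11 ± 0.05 did not pass (adjusted p = 0.0974, edgeR; -0.11 with the offset, adjusted p = 0.0567). STT3B read 245, 209 and 221 CPM in control and 256, 268 and 281 CPM in MYC libraries, at 0.25 ± 0.07 (adjusted p = 0.0133, edgeR). With the offset STT3B was at 0.01 (adjusted p = 0.857), and its call also ended without control library 2 (adjusted p = 0.0575) or 3 (adjusted p = 0.0598) and on log2(TPM + 1) (0.21, adjusted p = 0.0932, limma). The TPM ratio of STT3A to STT3B was 1.09, 1.34 and 1.30 in control and 1.20, 1.12 and 1.07 in MYC libraries, with overlap (log2 difference -0.13, exact permutation p = 0.3, and -0.10 with the GC trend taken out, p = 0.4).

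Among the subunits tied to STT3A, OSTC and KRTCAP2 were called in opposite directions without the offset. OSTC read 75.0, 65.2 and 62.1 CPM in control and 79.4, 84.9 and 80.3 CPM in MYC libraries, at 0.28 ± 0.08 (adjusted p = 0.0138, edgeR). KRTCAP2 read 84.3, 96.3 and 84.0 CPM in control and 75.2, 77.3 and 68.4 CPM in MYC libraries, at -0.26 ± 0.08 (adjusted p = 0.0159). With the offset neither was called, at 0.04 (adjusted p = 0.546) and -0.07 (adjusted p = 0.239). The call of KRTCAP2 was also lost with the effective length offset (-0.13, adjusted p = 0.149). That of OSTC was also lost without control library 3 (adjusted p = 0.0717) or MYC library 2 (adjusted p = 0.0632) and on log2(TPM + 1) (0.25, adjusted p = 0.0516, limma). The annotation names 6 pseudogenes of OSTC, and AL713999.1 on the same strand overlaps 18.4% of the exon bases of KRTCAP2.

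Of the 5 shared subunits, DAD1 alone was called higher, and no other was called without the offset. DAD1 read 114, 121 and 111 CPM in control and 142, 145 and 134 CPM in MYC libraries, at 0.28 ± 0.06 (adjusted p = 0.00276, edgeR) and 0.07 with the offset (adjusted p = 0.315). RPN2 read 715, 759 and 757 CPM in control and 712, 719.9 and 649 CPM in MYC libraries. It was called lower with the offset only, at -0.22 (adjusted p = 0.00431, edgeR). RPN1, DDOST and OST4 were at -0.06, -0.18 and -0.08 (adjusted p = 0.456, 0.102 and 0.565, edgeR) and not called with the offset. On the log2(TPM + 1) scale limma called DDOST lower, at -0.22 (adjusted p = 0.0241), and edgeR did so when MYC library 1 was left out (adjusted p = 0.0381). Without control library 3, 1 of the 11 subunits was called higher in place of 3.

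The share of members whose deposited length separated the groups was near that of all genes. The deposited gene length lay above all controls in all MYC libraries for DPM2, ALG5, ALG13 and ALG14, and below them for MPDU1, ALG1, ALG12, DDOST and KRTCAP2, while 25 members overlapped. The mean lengths of DDOST and ALG5 differed by under 1%. Over all genes tested, 25.3% did not overlap, 11.6% above and 13.7% below. In TPM, 9 members had all MYC libraries above the controls and 12 below. Over all genes 59.8% did not overlap, 25.8% above and 34% below. On log2(TPM + 1), limma called 6 members higher and 9 lower, against 21.3% and 29.7% of all genes (51% in either direction). With the effective length offset edgeR called 10 higher and 7 lower, against 26.1% and 29% (55.1% in either direction).

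The other genes of the pathway, in 5 lists of 42 genes, were all tested. Of these 42, 19 were called higher and 16 lower by edgeR, 83.3% in all, beside 60.8% of all genes (28.8% higher and 32.1% lower). With the GC offset 16 were higher and 13 lower, 69.0% in all, beside 59.3% of all genes (27.8% and 31.5%). The lists were written with earlier results of these data known, and their difference from all genes was not tested. In the synthesis of the nucleotide sugars and hexose phosphates that feed the pathway, 4 of 10 were higher and 3 lower, and 5 and 3 with the offset. PMM1, a phosphomannomutase, fell from 58.04, 60.9 and 61.1 to 35.0, 28.3 and 25.9 CPM (log2 fold change -1.02, adjusted p = 6.43e-05, and -0.44 with the offset, adjusted p = 7.53e-05). MPI, the isomerase that makes mannose 6-phosphate, rose by 0.48 (adjusted p = 0.00196, edgeR) and by 0.75 with the offset (adjusted p = 8.21e-07). UAP1 and GNPNAT1, both of the UDP-N-acetylglucosamine route, rose by 0.38 and 0.44 (adjusted p = 0.00105 and 0.00210, edgeR), and by 0.15 and 0.18 with the offset (adjusted p = 0.00963 and 0.0202).

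Of 7 mevalonate pathway genes, which supply the isoprenoid units of dolichol, 4 were higher and 3 lower, and 5 and 1 with the offset. FDPS, the farnesyl diphosphate synthase at the branch to dolichol, rose by 0.40 (adjusted p = 0.000736, edgeR) and by 0.55 with the offset (adjusted p = 1.12e-05). MVD, the mevalonate diphosphate decarboxylase, fell from 15.6, 18.2 and 16.4 to 5.83, 4.81 and 3.81 CPM, at -1.82 (adjusted p = 1.86e-05, edgeR) and -0.66 with the offset (adjusted p = 2.32e-05). PMVK was lower at -0.66 (adjusted p = 0.000182, edgeR) and at -0.01 with the offset (adjusted p = 0.902). MVK and, among the sugar donor genes, GMPPA were called lower without the offset (-0.41 and -0.33) and higher with it (0.30 and 0.18). These 2 genes were named after their values were seen.

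The list of 8 other enzymes that use dolichol-phosphate mannose, for GPI anchors and for O- and C-mannosylation, had 3 called higher and 5 lower, and none higher and 4 lower with the offset. POMT1 and POMT2, the protein O-mannosyltransferases, were lower at -0.78 and -0.44 (adjusted p = 6.87e-05 and 0.000835, edgeR), and at -0.48 and -0.36 with the offset (adjusted p = 5.22e-05 and 0.000666). PIGV and PIGM, mannosyltransferases of the GPI anchor, were lower at -0.55 and -0.34 (adjusted p = 0.000193 and 0.000576, edgeR), and at -0.38 and -0.63 with the offset (adjusted p = 0.000609 and 8.02e-06). The groups of each of these 4 genes did not overlap in CPM. POMT2 overlapped in TPM, and limma on log2(TPM + 1) did not call it (-0.39, adjusted p = 0.0753), nor did edgeR with the effective length offset (-0.39, adjusted p = 0.0524).

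Downstream of transfer, 7 of 14 genes of glucose trimming and the calnexin cycle were higher and 5 lower, and 4 and 5 with the offset. PDIA3, the disulfide isomerase that works with calnexin, rose from 116, 100.7 and 106 to 193, 196 and 202 CPM (log2 fold change 0.88, adjusted p = 1.45e-05, and 0.75 with the offset, adjusted p = 3.99e-06). NGLY1, which strips glycans from misfolded proteins, rose by 0.42 (adjusted p = 0.000580, edgeR) and by 0.18 with the offset (adjusted p = 0.00276). MAN1B1, a trimming mannosidase, and PRKCSH, the regulatory subunit of glucosidase II, were lower at -0.87 and -0.99 (adjusted p = 8.30e-05 and 0.000163, edgeR), and at -0.32 and -0.20 with the offset (adjusted p = 0.000576 and 0.00835). On log2(TPM + 1) PRKCSH was at -0.40 (adjusted p = 0.00181, limma). In the list of 3 further assembly and transferase genes, MLEC, a lectin of the endoplasmic reticulum, was higher at 0.21 (adjusted p = 0.00720, edgeR). TMEM258, a further oligosaccharyltransferase subunit, was at 0.13 (adjusted p = 0.219), and both were called with the offset (0.13 and 0.18, adjusted p = 0.0190 and 0.0259).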

How the data were processed

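Poly-A RNA-seq of 3 control and 3 MYC samples of U266 was used, grouped by the labels. The submitters' processing notes name cutadapt, TopHat2 and the build GRCh37, with no tool version or gene annotation. The deposited tables are RSEM output, per the file headers, and hold for each gene an expected count, a TPM, a length and an effective length. Whether the library kit marks strand is not stated, so reads of overlapping genes may not have been told apart. Besides the members for which overlap is given above, other genes overlap exon bases of ALG9 (24.4%), OST4 (21.0%), DDOST (15.7%) and MPDU1 (11.1%). Overlap was smaller for RPN2 (5.2%), SRD5A3 (4.5%), STT3A (1.1%) and ALG3 (0.8%).

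The rounded counts went into edgeR 4.0.16 under R 4.3.3 (default filter, TMM factors, group as the only term, quasi-likelihood F test, Benjamini-Hochberg over 17679 genes, called at an adjusted p under 0.05); SE values were derived from the F statistic. CPM values use TMM factors. Summed counts of 27139978 to 158667309 per library limit the precision of low genes, and the error given is the spread between libraries. For the GC offset, log2 CPM (prior count 2) was fitted on transcript GC content from GENCODE 29 by loess (span 0.4) in each library, over 17219 genes, and the trend taken as an offset. Alternatives were RLE factors, DESeq2 1.42.0, limma-trend (3.58.1) on log2(TPM + 1) and log2(TPM + 0.1), an effective length offset, no filter, mean CPM of at least 5, a replicate block, the GC offset with that block, and each library left out in turn. Ratios of 2 genes were computed from the deposited TPM and tested with an exact permutation test over samples, also with each library's GC trend subtracted, which was added after seeing the data. Of the fits, only edgeR without an offset and edgeR with the GC offset were tested on simulated data. The members, lists and settings were chosen with earlier results of these data known. All members could be named, and from each further list up to 4 called genes by smallest adjusted p, or the 2 most abundant where fewer than 2 were called. A gene that this rule also names is not reported here.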

Additional observations from a re-analysis of the deposited data

How the results depend on the processing

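The number of members called higher was 12 in the test as reported, 7 with the GC offset, 7 with the GC offset and a replicate block, and 6 with either pseudocount on TPM (1 or 0.1). The number called lower stayed within 1.5 times of 8 in each alternative. Leaving out each library in turn gave 9 to 12 members higher and 7 to 10 lower, 16 to 21 further pathway genes higher and 14 to 16 lower, and a median log2 fold change of the members from 0.00529 (without control library 3) to 0.0676, against 0.0458 as reported. That median was -0.0225 with the GC offset, -0.0250 with the GC offset and the block, and -0.00549 and -0.00631 on TPM with pseudocounts of 1 and 0.1. MYC stayed between 4.15 and 5.15. The replicate numbers showed no clear pairing of the samples (correlation of deviations -0.0472, 0.0779 and 0.110). Samples of unlike number gave -0.164 to 0.103, and 3 samples per group cannot settle whether they were paired. With the replicate block alone 11 members were higher and 8 lower (18 and 16 of the further genes), at a median of 0.0524.

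Of 543 log2 fold changes of single members under 16 alternatives, 448 kept direction and call, 43 lost a call and 16 gained one with the same sign, and 36 changed sign. Of these 36, 7 also lost a call, 7 gained one and 22 were called in neither fit. The cause of the changes of sign was not tested. With the GC offset, and then with that offset and the replicate block, these were DOLK (0.0833 and 0.0812), DOLPP1 (0.0747 and 0.0714), DPM1 (-0.152 and -0.150), DPM2 (0.103 and 0.102), ALG5 (-0.234 and -0.231), ALG1 (0.0479 and 0.0442), ALG11 (-0.200 in both), ALG9 (-0.0676 and -0.0662), STT3A (-0.110 and -0.111), OST4 (0.0497 and 0.0498) and MAGT1 (-0.168 and -0.167). With the effective length offset they were SRD5A3 (0.000798), ALG14 (-0.140) and ALG1 (0.0815). On TPM with pseudocounts of 1 and 0.1 they were ALG14 (-0.207 and -0.246), ALG1 (0.0458 and 0.0469) and ALG11 (-0.0138 and -0.0160). Leaving out libraries, ALG5 ran from -0.0354 (without control 2; -0.0330 without control 3) to 0.132, ALG11 from -0.00120 (without control 2) to 0.0674 and OST4 from -0.163 to 0.0296 (without control 2; 0.00622 without MYC library 3). The ratio of DPM2 to DPM1 turned to 0.212 with the GC trend taken out, an alternative chosen after seeing the data.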
